A study of Mus musculus with 16 samples.

Results

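The genes described here encode intermediate filament proteins: desmin (Des), vimentin (Vim), synemin (Synm), nestin (Nes), lamins A and C (Lmna) and the simple-epithelial keratins 8, 18 and 19 (Krt8, Krt18, Krt19). They were taken by symbol from a table of read counts, and all 8 were found among 54108 gene rows. The 8 were selected on knockout-against-control fold changes and calls from these same libraries, which were known when the genes were proposed, so their levels, fold changes and calls in that comparison are a description and carry no test. All 8 passed the filter on low counts (about 10 reads, or 0.445 CPM, in at least 4 libraries). Krt8 passed through the knockout libraries, since only 2 of its 4 control libraries reached that level.

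The cardiac knockout (cKO) mice carried Myh6-Cre and Rbpms fl/fl, and the control mice carried Rbpms fl/fl without the Cre, so both genotypes had the floxed alleles. The protein made from Rbpms binds RNA. The Myh6 promoter is active in heart muscle cells, so the knockout is directed at those cells and not at the other cells of the ventricle. Polyadenylated RNA of whole ventricles was sequenced at 8 weeks of age in 4 cKO and 4 control libraries. In each genotype, 3 libraries were labelled male and 1 female (replicate 3). A control with Cre and no floxed allele was not among the groups used, and newborn (P1) ventricles of both genotypes were not analysed here.

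Intermediate filaments are rope-like polymers of coiled-coil proteins that carry mechanical load. In heart muscle cells desmin ties the Z-discs to each other, to the cell border and to the nucleus, and synemin joins desmin or vimentin filaments. Vimentin and nestin are typical of fibroblasts, endothelial cells and vascular or immature cells, while the lamins line the inside of the nuclear membrane. Keratins form obligate pairs of a type II protein (keratin 8) with a type I protein (keratin 18 or 19), and are best known from simple epithelia and the early embryo.

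Total counts per library were 20190334 to 24540433. Rbpms, the targeted gene, had 26.9 to 38.8 CPM (counts per library scaled to a common size, with TMM factors) in cKO libraries and 101.6 to 193 CPM in control libraries, so no library went against its label. Each library is labelled with its own sex, and no label says whether tissue was pooled, so the spread given is that between these libraries. In whole ventricle, a change in the number of cells of a type and a change in RNA per cell cannot be told apart.

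Of the 8 genes, 5 were called higher in cKO ventricles (Krt8, Krt18, Synm, Vim and Lmna) and 0 lower. A call is an adjusted p under 0.05 in edgeR's quasi-likelihood test over all 16051 tested genes, where 9.64% were called higher and 9.64% lower. The same 5 genes had no overlap between genotypes, which held for 23.5% of all tested genes in either direction and 11.8% with cKO higher. Des was higher on average without being called, and Nes and Krt19 overlapped widely. The median log2 fold change of the 8 was 0.63, beside 0.01 for all tested genes.

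**Figure D1:**
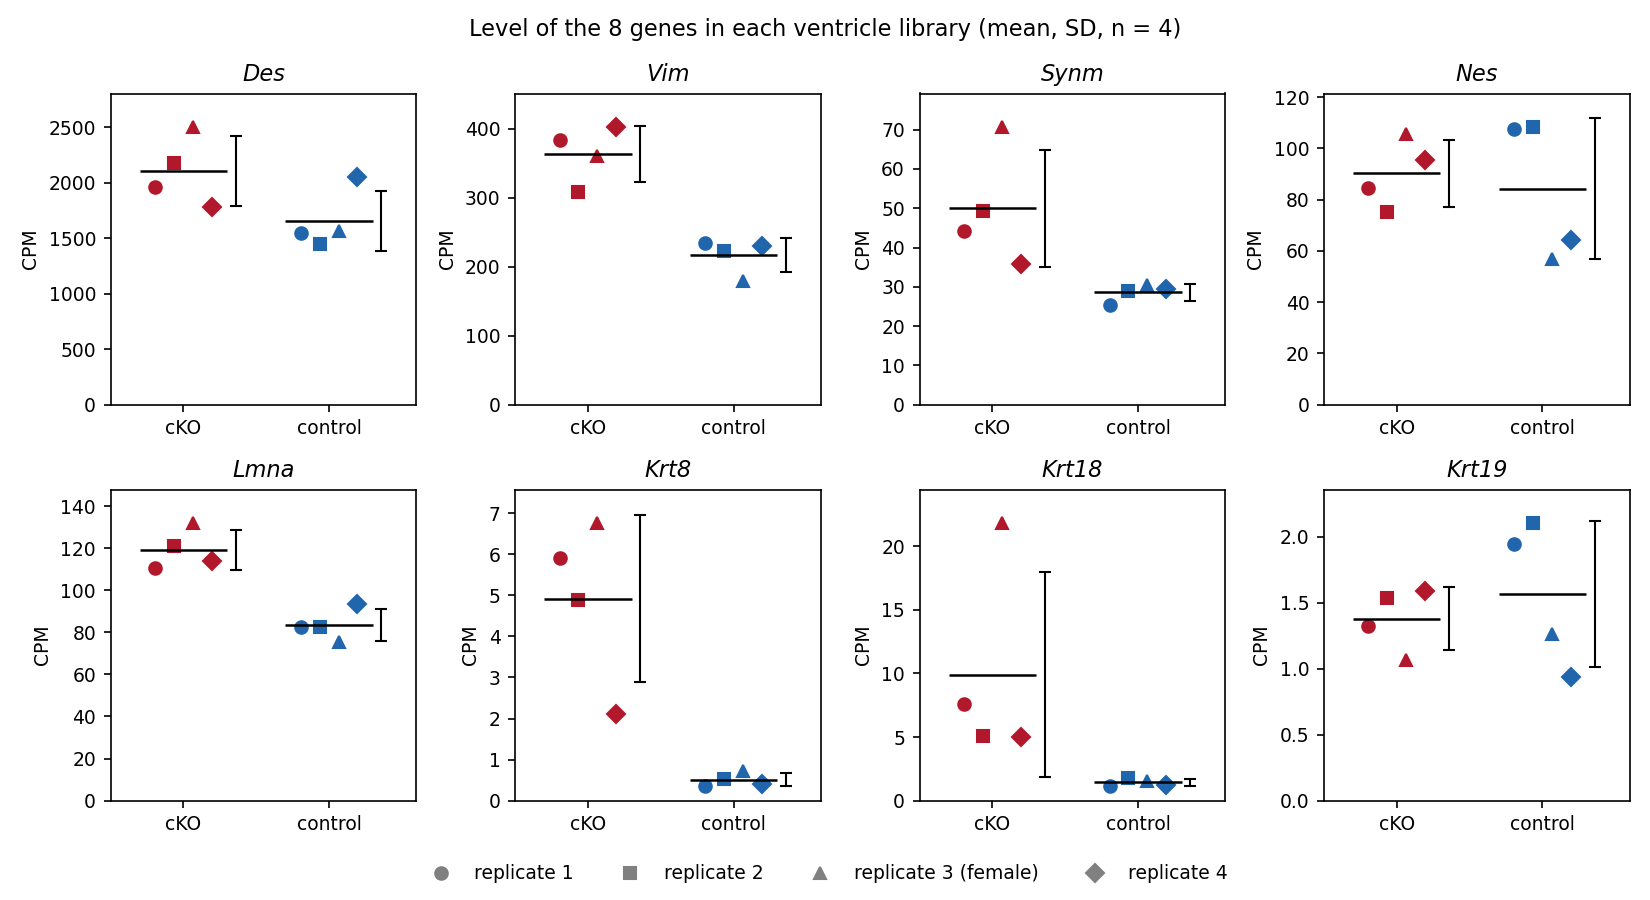
CPM of each of the 8 genes in every ventricle library, cKO left of control, with 1 marker per library (triangle, the female library), a line at the mean and a bar for the SD (n = 4 per genotype). Krt8, Krt18, Synm, Vim and Lmna separate the genotypes, while Des, Nes and Krt19 overlap, and Krt18 in cKO replicate 3 stands far above the other cKO libraries.

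The 2 keratin partners had the largest fold changes of the 8. Krt8, the type II keratin of simple epithelia, had 5.92, 4.88, 6.77 and 2.11 CPM in cKO replicates 1 to 4, and 0.363, 0.539, 0.716 and 0.418 CPM in control replicates 1 to 4. These values stand on 143, 111, 171 and 49 reads in cKO libraries and on 8, 11, 17 and 8 reads in control libraries. Every cKO library was above every control library, and cKO replicate 4 was the lowest of its genotype. Krt8 averaged 4.92 ± 2.03 CPM in cKO and 0.509 ± 0.156 CPM in control ventricles (SD, n = 4 each), a 9.51-fold higher level (log2 fold change 3.25 ± 0.38 SE).

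Krt18, its type I partner, had 7.58, 5.10, 21.8 and 5.03 CPM in cKO replicates 1 to 4, against 1.18, 1.76, 1.56 and 1.25 CPM in control replicates 1 to 4. The cKO libraries lay above all control libraries, and the female cKO replicate 3 was far above the other 3. Krt18 averaged 9.89 ± 8.06 CPM in cKO and 1.44 ± 0.27 CPM in control ventricles (SD, n = 4 each), 6.86-fold higher (log2 fold change 2.78 ± 0.47 SE). Without cKO replicate 3 the log2 fold change was 2.03, or 4.09-fold, and the gene was still called. Among all 16051 tested genes ordered by log2 fold change from the highest, Krt8 was at rank 19 and Krt18 at rank 37.

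Krt19, the other type I partner of keratin 8, stayed low in both genotypes. It had 1.32, 1.54, 1.07 and 1.59 CPM in cKO libraries and 1.95, 2.11, 1.26 and 0.941 CPM in control libraries. All 4 cKO values lay within the control range, and the log2 fold change of -0.18 ± 0.30 SE was not called. Whether Krt19 differs from Krt8 or Krt18 in its fold change was not tested.

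Krt8 and Krt18 are neighbours on chromosome 15 in GRCm38. GENCODE places Krt8 at 101996698 to 102004482 on the minus strand and Krt18 at 102028180 to 102032027 on the plus strand, with their starts 23.7 kb apart and pointing away from each other. The 3 other tested genes within 100 kb of the pair, Eif4b, Tns2 and Spryd3, were not called by edgeR, with log2 fold changes of 0.06, -0.17 and -0.04 (adjusted p = 0.688, 0.169 and 0.804). The keratin genes Krt4, Krt78 and Krt79 on the other side of Krt8 were too low to be tested.

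Because the 2 keratin genes were higher together, the 250 bases before each RefSeq start are shown, with those of Vim for comparison. They are read 5′ to 3′ on the gene's strand in GRCm38.p6, from chr15:102004343-102004592 (minus) for Krt8, chr15:102027966-102028215 (plus) for Krt18 and chr2:13574061-13574310 (plus) for Vim. Capitals mark matches on either strand to the motifs searched. These were the TATA box (TATAAA), the CCAAT box, the GC box (GGGCGG), the AP-1 site (TGANTCA), the E-box (CANNTG), the CArG box and the MEF2 site, and matches may overlap.
Krt8: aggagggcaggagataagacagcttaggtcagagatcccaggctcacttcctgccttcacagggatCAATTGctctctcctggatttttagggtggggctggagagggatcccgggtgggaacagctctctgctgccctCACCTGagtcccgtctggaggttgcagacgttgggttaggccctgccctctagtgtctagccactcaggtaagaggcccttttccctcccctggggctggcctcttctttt
Krt18: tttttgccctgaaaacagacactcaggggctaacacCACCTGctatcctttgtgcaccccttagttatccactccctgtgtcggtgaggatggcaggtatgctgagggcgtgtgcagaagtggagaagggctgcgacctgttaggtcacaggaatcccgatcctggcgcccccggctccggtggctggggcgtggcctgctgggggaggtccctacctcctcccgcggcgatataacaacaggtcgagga
Vim: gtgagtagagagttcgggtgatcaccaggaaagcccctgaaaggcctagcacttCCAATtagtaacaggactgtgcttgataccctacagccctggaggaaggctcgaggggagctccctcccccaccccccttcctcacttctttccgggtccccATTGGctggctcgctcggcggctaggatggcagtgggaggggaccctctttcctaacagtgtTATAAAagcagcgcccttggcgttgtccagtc
Krt8 held 2 matches to the E-box and Krt18 held 1. Vim held 1 TATA box, 27 to 32 bases before the start, and 2 CCAAT boxes. Over 32851 RefSeq promoter windows of the same length, the E-box was found in 66.2%, the CCAAT box in 33.8%, the GC box in 32.7%, the TATA box in 12.4%, the AP-1 site in 6.75%, the MEF2 site in 2.92% and the CArG box in 1.47%. A match describes the letters in these windows and not the binding of a factor. The tables place starts differently, since GENCODE starts Krt8 140 bases, Krt18 36 bases and Vim 384 bases upstream of the RefSeq start. Windows were found for 7 of the 8 genes.

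Near-identical copies held few reads. Of annotated transcripts of other genes that match Krt8 over at least 100 bases at 90% identity or more, 2 genes were found, and together they had 2 reads in cKO libraries and 0 in control libraries. Krt18 matched 1 gene, a pseudogene with 0 reads in every library. Des matched 1 gene, Gm15179, which had 61 reads in cKO and 57 in control libraries beside 201590 and 140145 reads of Des. The sources used here do not say how reads with several alignments were counted.

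Keratins 8, 18 and 19 also mark the mesothelium that covers the heart. A list of 14 other mesothelial and epicardial markers was written with earlier results of these data known. Of these, 13 were tested and 1 was called higher by edgeR (Aldh1a2, a retinoic acid enzyme, log2 fold change 0.74, adjusted p = 0.0279), with 0 lower. Among all tested genes, 9.64% were called higher and 9.64% lower. Upk3b and Msln, defining markers of that layer, had log2 fold changes of -0.08 and -0.05 and were not called (edgeR adjusted p = 0.878 and 0.908). The median log2 fold change of the 13 was 0.04, and those not called ran from -0.35 (Muc16) to 0.46 (Tbx18). The summed level of these 14 markers was 89.1 to 106.8 CPM in cKO libraries and 51.7 to 104 CPM in control libraries. The 89.1 CPM was that of cKO replicate 3 and the 51.7 CPM that of control replicate 4. The part of this layer in the keratin levels was not tested.

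Few other keratin genes were expressed. The table holds 54 rows with a keratin symbol, of which 7 were tested, 3 were called higher (Krt8, Krt18 and Krt80) and 0 lower. Among all tested genes, 9.64% were called higher and 9.64% lower. Krt8 and Krt18 were selected on this same comparison, and Krt8 passed the filter through the cKO libraries. The count is thus no support for a rise of keratin genes in general, and Krt80 is the called keratin outside the 8 members. Of the 47 not tested, 27 had 0 reads in all 8 libraries, and none had more than 25 reads in total. Krt80, a type II keratin, had 8.74, 9.14, 23.3 and 5.24 CPM in cKO replicates 1 to 4, and 1.45, 1.67, 1.94 and 2.35 CPM in control replicates 1 to 4. As for Krt18, cKO replicate 3 was the highest and the genotypes did not overlap. The log2 fold change of Krt80 was 2.65 ± 0.41 SE (edgeR adjusted p = 0.00102), a 6.29-fold higher level, and 2.06 (4.16-fold) without cKO replicate 3. Krt222, Krt10 and Krt7 were not called, with log2 fold changes of -0.05, -0.33 and 0.02. Krt222 had the highest level of the 7 tested, with a mean of 62.8 CPM in cKO and 65.2 CPM in control ventricles.

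**Figure D2:**
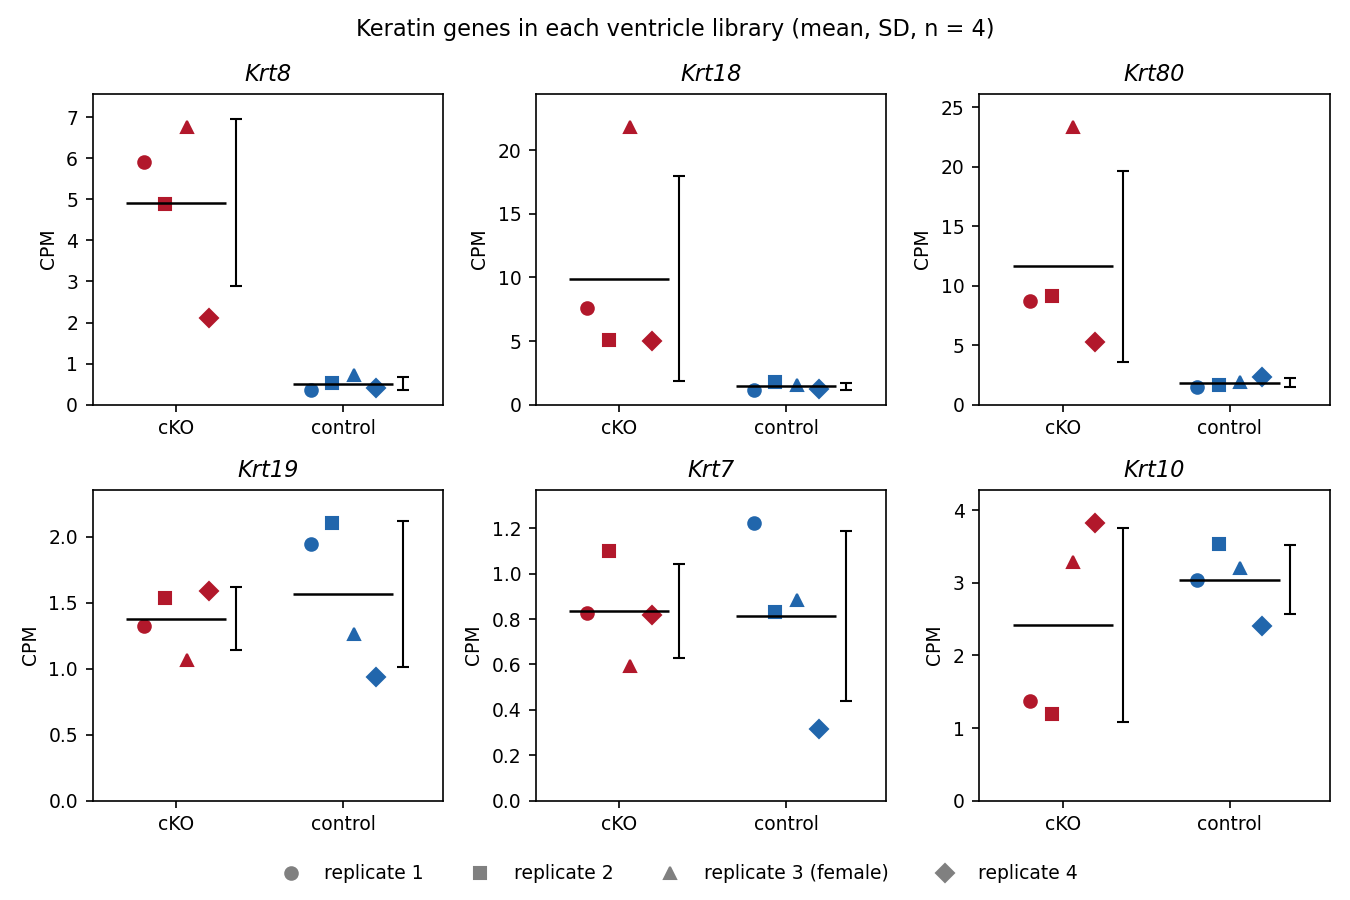
CPM of the called keratin genes Krt8, Krt18 and Krt80 and of Krt19, Krt7 and Krt10 in every library, cKO left of control, with the mean and SD (n = 4 per genotype). The upper 3 genes show no overlap between genotypes, and the lower 3 do; cKO replicate 3 (triangle) is the highest library for Krt18 at 21.8 CPM and for Krt80 at 23.3 CPM.

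Desmin and its partner synemin make up the filament system of the muscle cell. Des had 1958, 2179, 2505 and 1779.9 CPM in cKO replicates 1 to 4, and 1550.0, 1446, 1564 and 2053 CPM in control replicates 1 to 4. Control replicate 4 lay above cKO replicates 1 and 4, so the groups overlapped, while the other 3 control libraries lay below all cKO libraries. Des averaged 2105 ± 312 CPM in cKO and 1653 ± 272 CPM in control ventricles (SD, n = 4 each), a log2 fold change of 0.35 ± 0.13 SE that was not called. It was called in 4 of 19 other settings, namely without control replicate 4 (log2 fold change 0.47), with total counts only (0.44), with no filter on low counts (0.34) and with DESeq2 (0.34). In control replicate 4, mitochondrial genes took 11.8% of the reads, while the 7 other libraries had 8.03% to 10.05%. Des was also not called in a refit without mitochondrially encoded genes. The part of the higher mitochondrial share of control replicate 4 in the Des result was not tested further.

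Synm, a large filament protein that joins desmin filaments, had 44.3, 49.3, 70.7 and 35.8 CPM in cKO replicates 1 to 4, and 25.3, 29.1, 30.5 and 29.3 CPM in control replicates 1 to 4. The groups did not overlap, and cKO libraries were more spread (coefficient of variation 29.8%) than control libraries (7.86%). The level was 1.75-fold higher in cKO (log2 fold change 0.81 ± 0.17 SE), and the gene was called in all 19 other settings, with a log2 fold change of 0.59 without cKO replicate 3. Synm overlaps Ttc23, a gene on the other strand. Ttc23 had 16.4 CPM in cKO and 17.0 CPM in control ventricles (log2 fold change -0.05), and the sources used here do not say whether strand was used in counting.

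In the adult ventricle, vimentin and nestin are filaments mainly of cells other than heart muscle cells. Vim had 383, 308, 361 and 403 CPM in cKO replicates 1 to 4, against 234, 223, 179.9 and 229.5 CPM in control replicates 1 to 4. All cKO libraries lay above all control libraries, with little spread in either genotype. Vim averaged 364 ± 41.0 CPM in cKO and 217 ± 25.0 CPM in control ventricles (SD, n = 4 each), 1.68-fold higher (log2 fold change 0.75 ± 0.11 SE), and was called in all 19 other settings.

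Nes, found in vascular and immature cells, had 84.5, 75.3, 106 and 95.4 CPM in cKO libraries and 107, 108, 56.9 and 64.2 CPM in control libraries. Control replicates 1 and 2 lay above every cKO library and control replicates 3 and 4 below, so the cKO values sat between 2 separate pairs of controls. The log2 fold change was 0.10 ± 0.20 SE and was not called here or in any of the 19 other settings. It turned to -0.05 without control replicate 3 and to -0.01 without control replicate 4.

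Markers of other cells were set beside Vim, where 9.64% of all tested genes were called higher and 9.64% lower. Of 15 resting fibroblast markers, 14 were called higher and 0 lower by edgeR. Mfap4, Islr and Dpt had the smallest adjusted p (3.51e-05, 8.86e-05 and 9.76e-05), with log2 fold changes of 2.03, 1.02 and 0.86. The 15 fibroblast markers summed to 5814 to 6755 CPM in cKO libraries and 2826 to 3777 CPM in control libraries. Of 15 endothelial markers, 0 were higher and 2 lower (Robo4 and Flt1, adjusted p = 0.0372 and 0.0453). Their summed level was 2099.5 to 2511 CPM in cKO libraries and 2405 to 2754 CPM in control libraries. Of 14 macrophage markers, 1 was higher (Mrc1, log2 fold change 0.42, adjusted p = 0.0176) and 0 lower. Their summed level was 295 to 338 CPM in cKO libraries and 179.7 to 313 CPM in control libraries. Of 13 smooth muscle and pericyte markers, 2 were higher (Cspg4 and Lmod1, adjusted p = 0.0309 and 0.0441) and 3 lower (Abcc9, Kcnj8 and Vtn, adjusted p = 5.71e-05, 0.025 and 0.0387). Their summed level was 1953 to 2351 CPM in cKO libraries and 2556 to 2872 CPM in control libraries. Abcc9, a potassium channel subunit, had 499 ± 19.2 CPM in cKO and 1016 ± 127 CPM in control ventricles (SD, n = 4 each). Counts of whole ventricle do not tell which cells held the Abcc9 RNA, heart muscle cells included, and this was not tested. Without Abcc9 the other 12 genes summed to 1445 to 1856 CPM in cKO libraries and 1650.3 to 1722 CPM in control libraries, which overlap. None of these lists was tested for its part in the levels of Vim or Nes.

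Cardiomyocyte and atrial markers were measured as well, beside the same shares of 9.64% called higher and 9.64% lower among all tested genes. Of 14 ventricular cardiomyocyte markers, 0 were higher and 5 lower by edgeR. Ckm, Ryr2 and Tnni3 had the smallest adjusted p (0.00045, 0.00114 and 0.00288), with log2 fold changes of -0.81, -0.68 and -0.47. The 14 markers summed to 51711 to 61105 CPM in cKO libraries and 61370 to 79745 CPM in control libraries. The labelled tissue thus showed its defining genes at high levels in every library. Of 9 tested atrial markers, 3 were higher (Nppa, Dkk3 and Nr2f2). The atrial light chain Myl7 had 41.6 ± 17.7 CPM in cKO and 39.9 ± 35.9 CPM in control ventricles (SD, n = 4 each). Myl7 was not called (log2 fold change 0.06, edgeR adjusted p = 0.954). It had 92.6, 17.1, 32.5 and 17.4 CPM in control replicates 1 to 4, and 20.8 to 63.6 CPM in cKO libraries. Bmp10 was not tested, with 72 reads in control replicate 1 and 0 to 6 reads in each other library. The part of atrial tissue in these levels was not tested. The atrial list summed to 620 to 765 CPM in cKO libraries and 132 to 334 CPM in control libraries, of which Nppa, a stress gene of ventricular muscle as well, had 393 to 539.6 CPM in cKO libraries and 42.1 to 104 CPM in control libraries.

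Lmna encodes lamins A and C, which arise from 1 gene by splicing, and the counts do not separate them. It had 110.4, 121, 132 and 114 CPM in cKO replicates 1 to 4, and 82.5, 82.5, 75.2 and 93.6 CPM in control replicates 1 to 4. The groups did not overlap, and Lmna had the smallest relative spread of the 8 genes in cKO libraries (coefficient of variation 8.03%). The level was 1.43-fold higher in cKO (log2 fold change 0.51 ± 0.09 SE), and the gene was called in all 19 other settings.

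**Figure D3:**
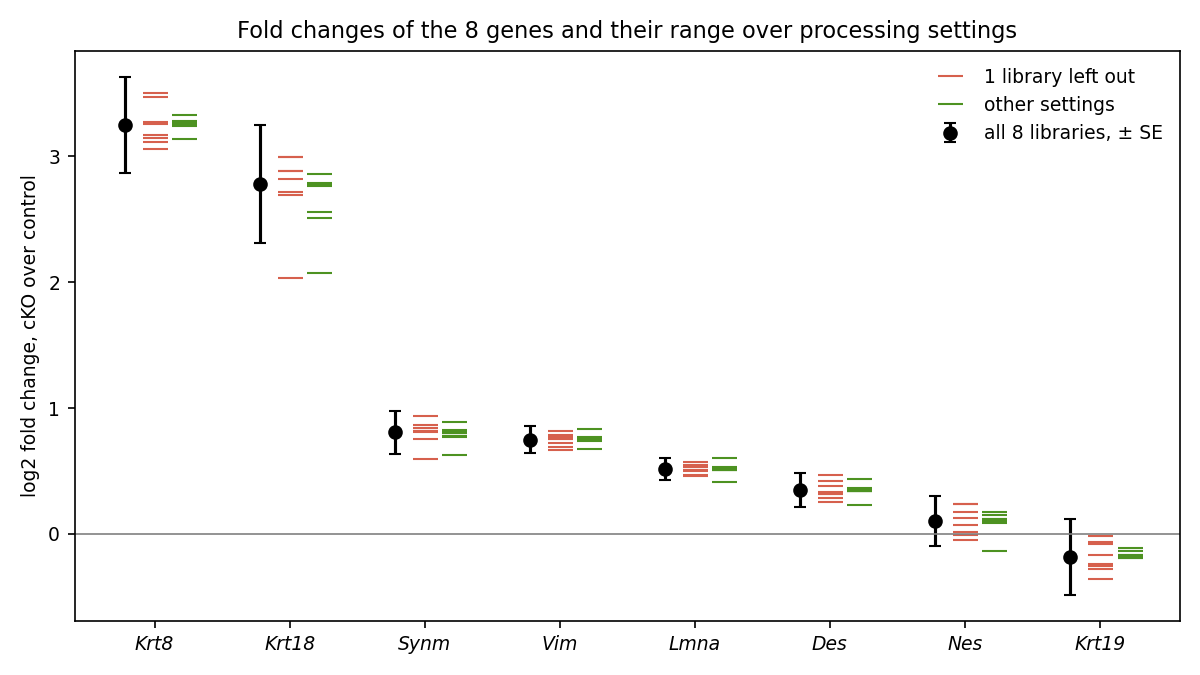
Log2 fold change of each gene, cKO over control, with its SE in all 8 libraries (black), with 1 library left out at a time (red) and under 11 other settings (green). Krt8, Krt18, Synm, Vim and Lmna stay above 0 throughout, Krt18 drops to 2.03 without cKO replicate 3, and Nes lies on both sides of 0.

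Levels of different genes can be set side by side per kilobase of exon. On that scale Des stood first in both genotypes, with 561 ± 83.2 CPM per kb in cKO and 440.4 ± 72.4 in control ventricles (SD, n = 4 each). Vim was next with 76.7 ± 8.65 CPM per kb in cKO and 45.7 ± 5.26 in control ventricles, followed by Lmna with 20.4 ± 1.64 in cKO and 14.3 ± 1.30 in control ventricles. Nes came after Lmna with 14.1 ± 2.06 CPM per kb in cKO and 13.1 ± 4.29 in control ventricles, and its control libraries overlapped those of Lmna. On this scale the muscle filament desmin exceeded all other members together in every library.

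Below these 4, the order differed between the genotypes. In cKO libraries Krt18 (3.50 to 15.2 CPM per kb) overlapped both Nes (11.7 to 16.5) and Synm (4.51 to 8.91), with Krt8 (1.08 to 3.46) and Krt19 (0.576 to 0.857) below them and apart from each other. In control libraries Synm (3.19 to 3.85 CPM per kb) stood above Krt18 (0.820 to 1.23), which overlapped Krt19 (0.507 to 1.14), and Krt8 (0.185 to 0.366) was the lowest. Krt8 thus lay above Krt19 in every cKO library and below Krt19 in every control library. Exon lengths were taken over all annotated transcripts of a gene, so a gene that uses a short isoform would be understated.

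**Figure D4:**
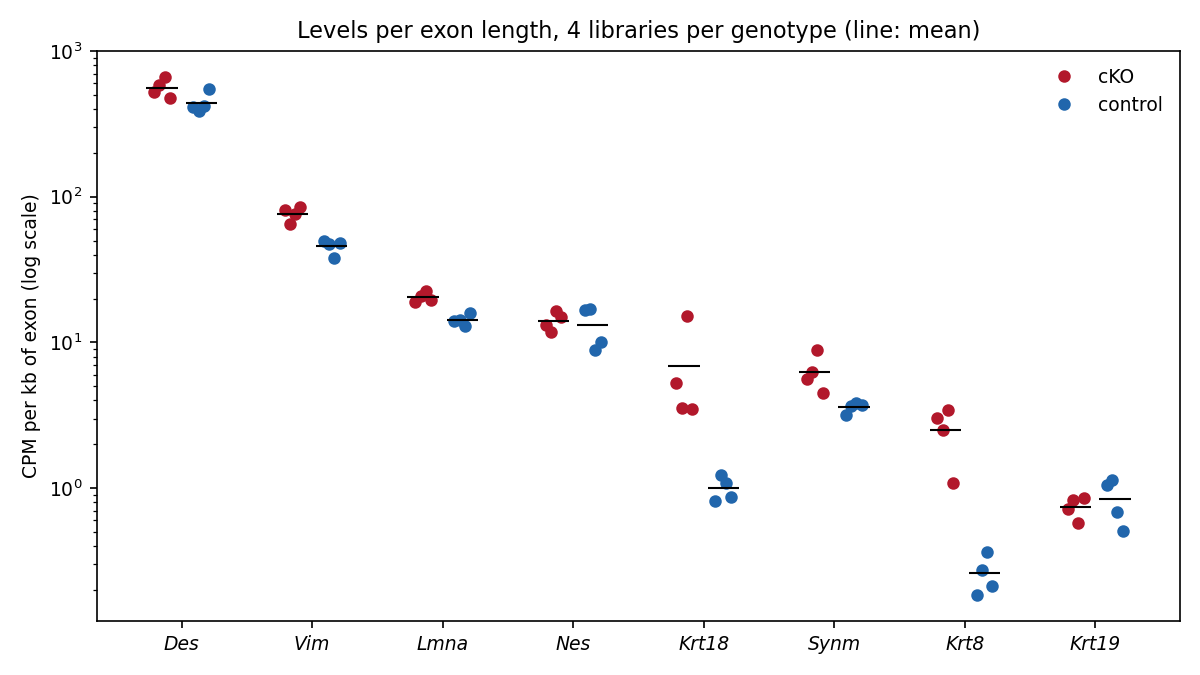
Level of each gene in CPM per kilobase of exon on a log axis, 1 point per library with cKO (red) left of control (blue) and a line at the mean. Des is highest in both genotypes at a mean of 561 CPM per kb in cKO and 440.4 in control libraries, and Krt8 lies above Krt19 in cKO but below it in control libraries.

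Desmin made up most of the summed filament level in both genotypes, and the keratin pair a small part. Des made up 78.6% to 84.0% of the 8 genes per kb in cKO libraries and 82.0% to 87.3% in control libraries, and Vim 9.39% to 14.1% in cKO and 7.72% to 10.02% in control libraries. Krt8 and Krt18 together made up 0.758% to 2.30% in cKO and 0.173% to 0.320% in control libraries, with no overlap. The ratio of Krt18 to Krt8 per kb was 1.74, 1.42, 4.40 and 3.25 in cKO replicates 1 to 4, and 4.43, 4.46, 2.97 and 4.09 in control replicates 1 to 4, so it overlapped between genotypes and varied most among cKO libraries. The 8 genes took 0.253% to 0.330% of all reads in cKO libraries and 0.187% to 0.223% in control libraries, most of it Des.

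Across libraries the members did not all vary together, as described here by correlations of log2 CPM over the 8 libraries that share the genotype difference. Krt8 and Krt18 had r = 0.94, and r = 0.65 after each genotype's mean was removed. Synm and Krt18 had r = 0.96, and 0.86 after the means were removed, with cKO replicate 3 highest in both. Des and Lmna had r = 0.86, and 0.84 after the means were removed. Vim and Krt8 had r = 0.81, and -0.56 after the means were removed.

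Genes with the most similar profile to 4 of the members were looked up among 14026 other genes with a mean of at least 1 CPM. For Vim these were Igfbp7, Aebp1 and Fstl1 (r = 0.99 each over 8 libraries, and 0.94, 0.94 and 0.93 with genotype means removed), secreted or matrix-associated proteins with log2 fold changes of 0.84, 0.84 and 1.35. For Krt18 they were Gas2l3, Pamr1 and Gm30873 (r = 0.99 each, and 0.97, 0.97 and 0.94 with means removed), with log2 fold changes of 1.73, 1.95 and 1.81. Gas2l3 and Pamr1 were far more spread in cKO (SD 8.27 and 10.3 CPM) than in control libraries (SD 0.338 and 0.478 CPM). Krt18 itself stood far higher in cKO replicate 3, and the part of that library in these correlations was not tested. For Krt8 they were 2410006H16Rik, Mapk4 and Evi5 (r = 0.99 each, and 0.93, 0.87 and 0.86 with means removed), with log2 fold changes of 0.35, 1.58 and 0.77. For Des they were Camsap1, Eloa and Psmd11 (r = 0.98, 0.97 and 0.97, and 0.96 each with means removed), with log2 fold changes of 0.19, 0.18 and 0.12. These are descriptions over 8 libraries, chosen as the highest of many.

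Other genes of the intermediate filament family were counted next. Of 25 listed, 12 were tested, 4 were called higher and 0 lower by edgeR, beside 9.64% of all tested genes called higher and 9.64% lower. The median log2 fold change was 0.27, beside 0.01 for all tested genes. Krt80 is described above. Iffo1, a filament-family protein of the nucleus, had 28.2 to 30.9 CPM in cKO and 21.4 to 23.9 CPM in control libraries, 1.32-fold higher (adjusted p = 0.00382). Nefm, the medium neurofilament, and Bfsp1, the lens protein filensin, were the other two, at 1.44 ± 0.37 and 1.10 ± 0.18 CPM in cKO and 0.397 ± 0.144 and 0.416 ± 0.176 CPM in control ventricles (SD, n = 4 each). Both were named after their values were seen. Only 1 control library for Nefm and 2 for Bfsp1 reached the filter level, so these genes were tested only because the cKO libraries were high, and their calls are no support for the list. Of the 12 tested, 8 reached that level in all 8 libraries. Of the other 4, Krt7 reached it in 4 cKO and 3 control libraries, while Nefl, Nefm and Bfsp1 passed the filter through the cKO libraries. Nefl had a log2 fold change of 2.05 and was not called. The count and the median of the list include Nefl, Nefm and Bfsp1, so neither is support for a rise of the list. The B-type lamins Lmnb1 and Lmnb2 were not called (log2 fold changes -0.05 and 0.08, adjusted p = 0.886 and 0.767), nor was the desmin-binding syncoilin gene Sync (0.26, adjusted p = 0.139).

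Linkers and attachment proteins of the filaments went both ways. Of 22 listed, 20 were tested, 3 were called higher and 5 lower, beside 9.64% of all tested genes called higher and 9.64% lower. The median log2 fold change was -0.10. Of the 3 higher, Eppk1, a plakin, had 1.14 CPM in cKO and 0.378 CPM in control ventricles on average and was tested only through the cKO libraries, since 2 control libraries reached the filter level. Its call is no support for the list, and the gene was named after its values were seen. Dsg2, a desmosomal cadherin, had 201 ± 17.8 CPM in cKO and 287 ± 10.97 CPM in control ventricles (SD, n = 4 each; log2 fold change -0.52 ± 0.08 SE, edgeR adjusted p = 0.000999). Nebl, the Z-disc protein nebulette, and Mtm1, the desmin-binding phosphatase myotubularin, fell with log2 fold changes of -0.49 and -0.39 (adjusted p = 0.00429 and 0.00368). Dtna, alpha-dystrobrevin, rose with 0.38 (adjusted p = 0.0108). Flnc, filamin C, had 0.39 (adjusted p = 0.0499), and was called in 1 of the 8 fits that left out a library. The main desmosomal linker Dsp and the filament crosslinker Plec were not called (log2 fold changes -0.06 and 0.18, adjusted p = 0.775 and 0.26).

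Chaperones and turnover factors of the filaments were counted in the same way. Of 18 tested, 3 were called higher and 1 lower, beside 9.64% of all tested genes called higher and 9.64% lower. The median log2 fold change was -0.03, and the list was not tested as a set. Hspb7, a small heat shock protein of heart muscle, had 1940.4 ± 187 CPM in cKO and 1464 ± 183 CPM in control ventricles (SD, n = 4 each; log2 fold change 0.41 ± 0.11 SE, adjusted p = 0.021), and was called in 4 of the 8 fits that left out a library. Hspb1 rose with 0.42 (adjusted p = 0.0111) and the ubiquitin ligase gene Trim63 fell with -0.26 (adjusted p = 0.0173). Hspa1a, an inducible heat shock protein with a near-identical paralog, had a log2 fold change of 1.89 from low levels (adjusted p = 0.00408). Cryab, the desmin chaperone alpha-B-crystallin, was not called (log2 fold change -0.02, adjusted p = 0.892).

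The partners of the lamins at the nuclear envelope held 1 called gene. Of 20 tested, Tmem43, a membrane protein of the inner nuclear envelope, was called higher and 0 were called lower. Among all tested genes, 9.64% were called higher and 9.64% lower. The median log2 fold change of the list was -0.07. Tmem43 had 82.7, 82.0, 100.2 and 83.1 CPM in cKO replicates 1 to 4, and 34.0, 39.4, 31.9 and 47.8 CPM in control replicates 1 to 4, 2.28-fold higher (log2 fold change 1.19 ± 0.12 SE, edgeR adjusted p = 0.000106). The groups did not overlap, and cKO replicate 3 was again the highest. Emd, Sun1 and Syne1, which tie the lamina to the cytoskeleton, were not called (log2 fold changes -0.19, -0.04 and -0.18, adjusted p = 0.20, 0.751 and 0.135), nor was the prelamin A protease gene Zmpste24 (-0.10, adjusted p = 0.433).

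**Figure D5:**
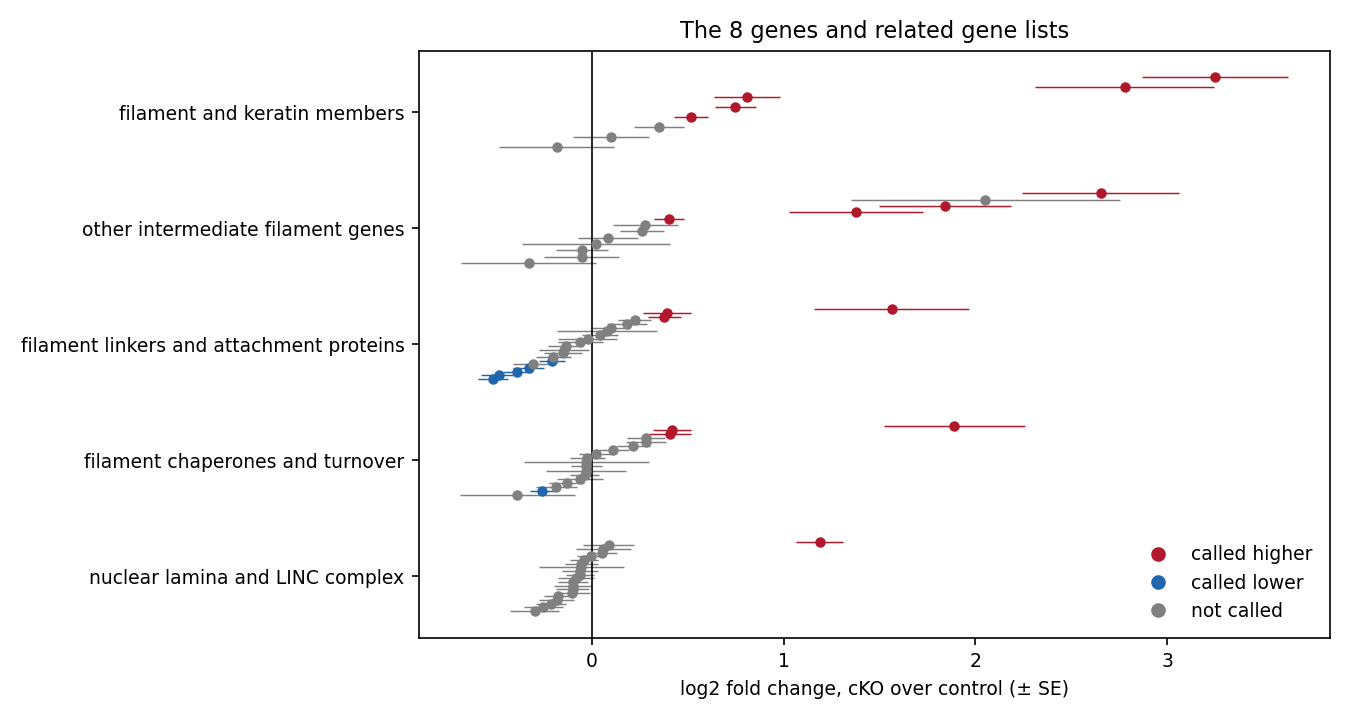
Log2 fold change, cKO over control, with its SE for each tested gene of the 8 described and of 4 related lists; red, called higher, blue, called lower, grey, not called. The 2 highest points are Krt8 at 3.25 and Krt18 at 2.78, Krt80 at 2.65 leads the other filament genes, and Tmem43 at 1.19 is the called gene of the lamina list.

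Sex is a comparison that the choice of members did not use, although it rests on 1 female per genotype. With genotype in the model, 0 of the 8 genes were called between 2 female and 6 male libraries by edgeR's quasi-likelihood test, where 0.486% of all tested genes were called. At an unadjusted p under 0.05 there were 2 of the 8, Krt18 and Synm, beside 13% of all tested genes. Krt18 averaged 11.7 CPM in females and 3.65 CPM in males (log2 female over male 1.29 ± 0.31 SE, adjusted p = 0.104), and Synm 50.6 CPM in females and 35.5 CPM in males (0.44 ± 0.14 SE, adjusted p = 0.206). DESeq2 called 1 of the 8, Krt18 (adjusted p = 0.00842). The high female value came from cKO replicate 3, while the female control had 1.56 CPM, within the 1.18 to 1.76 CPM of the male controls. For the genotype-by-sex interaction, added after the data were seen, 0 of 16051 genes were called, and 4 of the 8 had an unadjusted p under 0.05 (Krt18, Nes, Synm and Lmna) beside 5.48% of all tested genes. The interaction was 1.73 ± 0.47 SE on the log2 scale for Krt18 (edgeR adjusted p = 0.557), and with 1 female library per genotype, sex and the single library cannot be told apart.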

How the data were processed

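Stranded mRNA libraries of 8-week ventricles were sequenced from both ends, per the labels' protocols. The values used are raw counts per gene symbol as deposited by the authors, 1 column for each library. Per the submitters' processing notes, the tools included HISAT2 2.0.4, featureCounts 1.6.0, edgeR 3.30.3 and FastQC 0.11.4, and the builds named were GRCm38 and mm10. The sources used here do not give the annotation release, the strand setting or how multiple alignments were handled. The members and gene lists were chosen with earlier results of these data known.

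Of 54132 rows, 24 carry a number in place of a symbol and were left out (0.115% to 0.132% of a library's counts). Library totals were 20190334 to 24540433, so 1 CPM is about 20 to 25 reads. The main test was edgeR 4.0.16 (R 4.3.3; quasi-likelihood, two-sided), with genotype as the only term, TMM scaling, a low-count filter at the filterByExpr defaults, and p-values adjusted by Benjamini-Hochberg across the 16051 genes tested. SE is the log2 fold change over the square root of F. The script was tested on simulated counts. Correlations used log2 CPM with a prior count of 2. Alternatives were other scalings, filters and tests (DESeq2 1.42.0, limma 3.58.1 voom), robust dispersions, sex as a covariate, males only, and each library left out. A refit without mitochondrially encoded genes was a further alternative that was not planned beforehand. No GEO label pairs libraries across genotypes. Pairs of same-genotype libraries differed with a chi-square of 7.89 to 33.9 per degree of freedom, well beyond sampling noise.

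Genes named are the 8 members, Rbpms, and from each list up to 3 called genes per direction with the smallest adjusted p and a mean of at least 1 CPM; uncalled list genes and others so marked were named after their values were seen. Positions, exon lengths and transcripts for the copy search (blastn 2.17.0) are from GENCODE M21 (GRCm38), and promoter sequences are from RefSeq (GRCm38.p6). A further marker list is not reported here.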

Additional observations from a re-analysis of the deposited data

Results flagged for a closer look

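Of 42 groups of 4 libraries examined (the 8 members, Rbpms and the named genes of the 4 related lists in each genotype), 4 had a library far from the other 3, where chance flags about 1 in 20. Krt18 in cKO ventricles had 21.8 CPM in replicate 3, with a gap to its neighbour of 0.848 of the group's range. Hspa1a in cKO ventricles had 4.63 CPM in replicate 3 (gap 0.894), and in control ventricles 1.03 CPM in replicate 2 (gap 0.875). Tmem43 in cKO ventricles had 100.2 CPM in replicate 3 (gap 0.939). Of these 4, 3 were cKO replicate 3, the female library; a cause was not tested.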

How the results depend on the processing

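Of 152 recomputed log2 fold changes of the 8 members, 145 kept their direction and their side of the threshold. Krt8, Krt18, Synm, Vim and Lmna were called in all 19 alternatives. Des was called in 4 of the 19, so that 5 or 6 members were called higher when 1 library was left out and 0 lower. Nes turned to -0.13 in males only and ranged from -0.050 (without control replicate 3) to 0.24 with 1 library left out. The sex effect on Lmna turned to -0.015 with upper-quartile factors, and members called between the sexes were 1 with DESeq2 and 2 with no filter. No paired analysis was possible because no label gives libraries of the 2 genotypes a shared number.

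Over all genes, 1548 were called higher and 1547 lower (50.0% higher); with total counts only the lower calls were 1021 and 66.1% of calls were higher, and the median log2 fold change of all genes was 0.09. Leaving out 1 library gave 1129 to 1458 higher and 1093 to 1418 lower. For other intermediate filament genes, called higher were 7 with no filter, 2 with the stricter filter and 3 to 5 with 1 library left out. For filament linkers, 5 were higher and 3 lower with total counts only, 1 and 3 in males only, and 1 to 2 higher and 4 to 5 lower with 1 library left out. For chaperones, 6 were higher and 0 lower with total counts only, 0 lower in males only, and 2 to 6 higher and 0 to 1 lower with 1 library left out. For the lamina list, 0 to 1 were lower with 1 library left out. The cause of these changes was not tested. Of 646 values of other named genes, 566 kept their call, 80 lost it and 0 turned direction. Krt8 stands on 8 to 17 reads per control library, which limits the precision of its control level. Krt18 had the largest SE of the 8 log2 fold changes (0.47), and ranged from 2.03 to 2.995 with 1 library left out.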
